A study of Mus musculus and Rattus norvegicus with 24 samples.

Results

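The genes described here encode the subunits of the receptors for glutamate, GABA and glycine, the fast transmitters of the brain: the AMPA (Gria), kainate (Grik), NMDA (Grin) and delta (Grid) subunits, the metabotropic glutamate receptors (Grm), the GABA-A subunits (Gabr) and the glycine receptor subunits (Glra, Glrb). They were picked out by a rule on gene symbols, and the set was chosen with earlier results of these data known. Of these genes, 44 had a transcript cluster (an array probe set) of their own among the 22180 mouse genes tested and 39 among the 18166 rat genes tested. The species shared 38 of them, and 45 were measured in at least 1 species. Where a symbol had more than 1 cluster, as 5 mouse symbols had, the brightest was used. Grin1 was analysed in rat only, and Gria1, Gria2, Grid1, Grm4, Grm7 and Glra3 in mouse only.

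Tissue came from adult male C57BL/6 mice (8 to 10 weeks) and adult male Sprague-Dawley rats (8 to 12 weeks) after permanent middle cerebral artery occlusion (pMCAO), a stroke model in which a filament is pushed up to the origin of the artery and tied in place, or after sham surgery without the occlusion. Samples of 3 by 3 mm were cut from the penumbra, the rim of underperfused tissue around the ischaemic core, or from the matching area on the operated side of sham brains. The 8 groups were pMCAO and sham mice at 2 h, pMCAO and sham mice at 6 h, pMCAO and sham rats at 2 h, and pMCAO and sham rats at 6 h, each with 3 animals and 1 array per animal, 24 arrays in all. The artery was blocked on the left in rats and on the right in mice, every animal of both surgeries was anaesthetised with isoflurane, and the labels name no genetic change. Values are the deposited log2 expression values, on which a difference of 1 is a doubling, and they were compared within a species and a time.

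Ionotropic glutamate receptors are channels that open on binding glutamate: AMPA receptors carry most fast excitation, NMDA receptors admit calcium once the cell is depolarised, and kainate receptors tune release and excitability. GABA-A and glycine receptors are chloride channels that mostly inhibit adult neurons, while metabotropic glutamate receptors signal through G proteins. When blood flow to cortex fails, glutamate builds up outside cells, and the calcium entry that follows through glutamate receptors is a textbook route to neuronal death in the penumbra.

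Of the 44 mouse genes, 33 had an entry in the RefSeq promoter table of assembly GRCm38.p6. The 250 bases before the start site are shown for Grik2, Gria4 and Glrb, which were lower after pMCAO in mice at 6 h (below), so that the sequence next to these genes can be read beside their values. Capitals mark a match to the GC box GGGCGG or its reverse complement.
Grik2, chr10:49788755-49789004, minus strand: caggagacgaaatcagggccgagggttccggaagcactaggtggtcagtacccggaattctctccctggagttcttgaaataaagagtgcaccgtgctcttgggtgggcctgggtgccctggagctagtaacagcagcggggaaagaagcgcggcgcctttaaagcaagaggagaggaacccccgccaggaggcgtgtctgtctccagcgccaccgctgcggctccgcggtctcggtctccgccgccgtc
Gria4, chr9:4796235-4796484, minus strand: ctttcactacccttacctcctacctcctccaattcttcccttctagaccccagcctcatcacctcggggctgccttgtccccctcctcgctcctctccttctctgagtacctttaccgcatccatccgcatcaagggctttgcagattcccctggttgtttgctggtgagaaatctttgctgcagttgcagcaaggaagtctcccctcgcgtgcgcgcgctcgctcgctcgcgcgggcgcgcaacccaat
Glrb, chr3:80913661-80913910, minus strand: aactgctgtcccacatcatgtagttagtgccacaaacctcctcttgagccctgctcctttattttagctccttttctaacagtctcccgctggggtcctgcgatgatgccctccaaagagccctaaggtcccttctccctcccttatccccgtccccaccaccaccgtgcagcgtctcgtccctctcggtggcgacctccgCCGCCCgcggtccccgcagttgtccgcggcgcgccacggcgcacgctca
Each window was searched on both strands for the cAMP response element TGACGTCA, the AP-1 site TGANTCA and the GC box, none of which overlapped another here. The only match was 1 GC box, in the Glrb window. Over the 40 windows of receptor genes, 0 held the cAMP response element, 2 the AP-1 site and 19 the GC box. Over all 32851 windows of the same length the shares were 1.55%, 6.75% and 32.7%. A match is a string of letters and not a site, and a window without one says only that these letters are not in it.

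The tissue carried neuronal RNA in every group: 12 of 12 pan-neuronal markers were measured in each species, and at 6 h their mean was 10.52 to 10.58 in pMCAO mice and 10.62 to 10.67 in sham mice. In rats at 6 h it was 10.97 to 11.04 after pMCAO and 11.03 to 11.08 after sham. The synaptic vesicle fusion gene Snap25 read 12.62, 12.62 and 12.63 in pMCAO mice and 12.58, 12.61 and 12.63 in sham mice at 6 h. Most markers lay lower: 9 of the 12 had a log2 difference (pMCAO minus sham) below 0 in mice at 6 h, against 53.4% of all genes. The median of the 12 was -0.10, while Snap25 had 0.02. A striatal marker mean (10 genes) in mice at 6 h was 7.34, 7.16 and 7.14 after pMCAO and 8.17, 7.38 and 8.42 after sham, so that 2 of the 3 sham pieces read higher in striatal RNA and sham replicate 2 lay near the pMCAO pieces. In rats at 6 h the striatal mean (11 genes) was 7.04 to 7.08 after pMCAO and 6.93 to 6.99 after sham. In bulk tissue, fewer cells of a type and less RNA per cell cannot be told apart.

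At 2 h after pMCAO, no receptor gene passed the test in either species. In mice 0 of 44 rose and 0 fell (limma, Benjamini-Hochberg adjusted p under 0.05), where 0.149% of all 22180 genes rose and 0.149% fell. Taking p without adjustment, 3 of the 44 were under 0.05, against 7.71% of all genes. The median log2 fold change (pMCAO minus sham) was 0.02, against -0.01 over all genes, and 18 of the 44 were below 0 (51.5% of all genes). In rats 0 of 39 rose and 0 fell, where 0.033% of all 18166 genes rose and 0.033% fell. There 2 were under 0.05 without adjustment, against 7.08% of all genes, and the median was near 0 for the receptor genes and for all genes (both -0.003).

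The members farthest from sham at 2 h covered dim and bright genes. Gabra6, the alpha subunit of cerebellar granule cells, read 3.68, 3.63 and 3.63 in pMCAO mice and 3.35, 3.31 and 3.31 in sham mice (log2 fold change 0.32 ± 0.06 SE, limma adjusted p = 0.076). The groups did not overlap, but the gene's mean lay below the lower quartile of the arrays. Glra4, a glycine receptor alpha subunit, read 5.41, 5.66 and 5.75 in pMCAO mice and 5.28, 5.51 and 5.10 in sham mice (0.31 ± 0.11, limma adjusted p = 0.466), and the groups overlapped. The third highest was the NMDA subunit Grin2c (0.15 ± 0.09). At the other end stood Gabrp, the GABA-A pi subunit, at 4.54, 4.67 and 4.54 in pMCAO mice and 4.85, 4.86 and 4.72 in sham mice (-0.23 ± 0.07, limma adjusted p = 0.439), then Gria1 (-0.15 ± 0.08) and Grin2d (-0.10 ± 0.08).

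In rats at 2 h, the glycine receptor subunit Glra1 read 5.98, 5.73 and 5.60 after pMCAO and 5.05, 5.45 and 5.41 after sham (0.47 ± 0.19, limma adjusted p = 0.633). Gabrg1, a GABA-A gamma subunit, read 9.38, 9.25 and 9.49 after pMCAO and 9.59, 9.67 and 9.81 after sham (-0.32 ± 0.11, limma adjusted p = 0.562). Neither pair of groups overlapped, and neither gene passed. Non-overlapping groups were found for 1 rat member below sham (7.57% of all rat genes) and 2 above (5.54%). The next values were Gabrr2 (0.16) and Gabrb2 (0.13) above sham, and Gabra5 (-0.17) and Grm6 (-0.15) below.

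At 6 h in mice, 5 of the 44 receptor genes fell and 0 rose. The 5 were Grik2, Gria4, Grid1, Glrb and Grm5, that is, 3 ionotropic glutamate receptor subunits of different families, 1 metabotropic glutamate receptor and the glycine receptor beta subunit. The decreases were small, between 0.24 and 0.43 on the log2 scale. Among all 22180 genes 4.23% fell and 3.21% rose, so the 5 fallers make 11.4% of the receptor genes against 4.23% of all genes. Brighter genes were called lower more often. With a sham mean of 9 or more, 9.59% of all 1867 genes fell, as did 3 of the 16 receptor genes. No test of the family as a group was made. Without adjustment 11 of the 44 were under 0.05, all of them lower (13.3% of all genes were lower at that level), and in the same number of genes, 11, every pMCAO animal lay below every sham animal (14.6% of all genes). In 0 of the 44 did every pMCAO animal lie above every sham animal (10.7% of all genes). The log2 fold change was below 0 in 33 of the 44 (53.4% of all genes), with a median of -0.10 against -0.02 over all genes.

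Grik2, which encodes the kainate subunit GluK2, had the smallest adjusted p. It read 8.55, 8.56 and 8.39 in pMCAO mice and 8.83, 8.98 and 8.99 in sham mice at 6 h, and the groups did not overlap. The log2 fold change was -0.43 ± 0.08 (SE, 95% interval -0.60 to -0.27, n = 3 per group, limma adjusted p = 0.00914). It passed in each of the 6 fits that left out 1 array of the comparison (adjusted p = 0.0145 to 0.0415). With the 6 arrays fitted alone (adjusted p = 0.0568) and with the striatal marker mean as a covariate (log2 fold change -0.45, adjusted p = 0.153) it did not pass. At 2 h it read 9.18, 9.14 and 9.21 in pMCAO mice and 9.06, 9.10 and 9.27 in sham mice (log2 fold change 0.03 ± 0.08), where the groups overlapped.

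Gria4, the AMPA subunit GluA4, which is prominent in fast-spiking interneurons, read 9.51, 9.42 and 9.32 in pMCAO mice and 9.66, 9.74 and 9.81 in sham mice (-0.32 ± 0.07, limma adjusted p = 0.022). The groups did not overlap. The delta receptor gene Grid1, whose protein organises synapses together with cerebellins and does not pass the usual glutamate-gated current, read 8.07, 7.94 and 8.05 in pMCAO mice and 8.24, 8.39 and 8.24 in sham mice (-0.27 ± 0.06, limma adjusted p = 0.0276). Its groups did not overlap either. For both genes the call did not hold when pMCAO replicate 2, pMCAO replicate 3, sham replicate 2 or sham replicate 3 was removed: over the 6 fits with 1 array left out, adjusted p was 0.0219 to 0.0823 for Gria4 and 0.0383 to 0.093 for Grid1.

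Glrb, the beta subunit that ties glycine receptors to the scaffold protein gephyrin, read 10.71, 10.75 and 10.64 in pMCAO mice and 10.90, 10.92 and 11.01 in sham mice (-0.24 ± 0.06, limma adjusted p = 0.038). Grm5, the G-protein-coupled receptor mGluR5, read 8.98, 8.92 and 8.81 in pMCAO mice and 9.10, 9.17 and 9.33 in sham mice (-0.30 ± 0.08, limma adjusted p = 0.042). In both genes each pMCAO animal lay below each sham animal. Glrb lost the call whichever array of the comparison was left out (adjusted p = 0.0558 to 0.128). Grm5 did not pass once pMCAO replicate 2 or 3, or sham replicate 2 or 3, was removed (adjusted p = 0.0451 to 0.142 over the 6 fits). The count over the 44 was 2 without pMCAO replicate 2 (Grik2 and the glycine receptor subunit Glra3), 1 (Grik2) without pMCAO replicate 3, sham replicate 2 or sham replicate 3, and 4 without pMCAO replicate 1 or sham replicate 1. Of all 22180 genes, 1042 passed in the first of these fits. Without pMCAO replicate 3, sham replicate 2 and sham replicate 3 in turn, 951, 861 and 616 passed. Without pMCAO replicate 1 and sham replicate 1 in turn, 1368 and 1047 passed. With the striatal marker mean as a covariate Gria4 had -0.33, Grid1 -0.33, Glrb -0.21 and Grm5 -0.21, with limma adjusted p of 0.192 to 0.48. In that fit 0 of the 44 passed, 75 of all 22180 genes did, and 33 of the 44 were still below 0 with a median of -0.11. The striatal mean itself did not overlap between the mouse groups at 6 h (7.14 to 7.34 after pMCAO, 7.38 to 8.42 after sham). A lost call in this fit, here or below, therefore cannot tell striatal content from lost precision. The clusters behind the 5 genes are 17240693 (Grik2), 17523705 (Gria4), 17298874 (Grid1), 17406165 (Glrb) and 17480002 (Grm5).

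**Figure D1:**
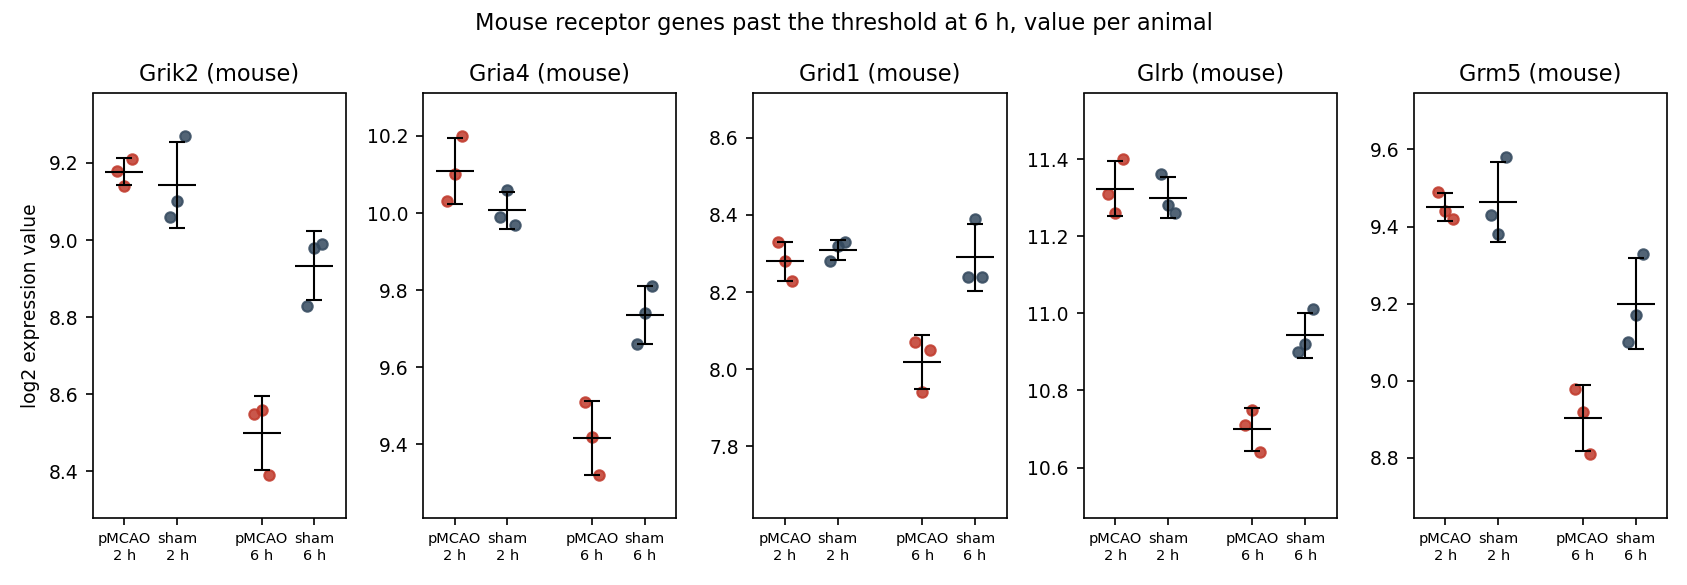
Log2 expression value (vertical axis, a separate range for each gene) of the 5 receptor genes that fell in mice at 6 h, 1 point per animal, with pMCAO left of sham at 2 h and at 6 h. Horizontal lines are means and whiskers are 1 SD (n = 3). At 6 h all pMCAO animals lie below all sham animals in each gene, for example 8.39 to 8.56 against 8.83 to 8.99 for Grik2, while at 2 h the groups overlap.

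Taken by family, all 4 AMPA subunits were below sham in mice at 6 h (53.4% of all genes were). Their median log2 fold change was -0.17, against -0.02 over all genes. Gria2, the subunit that keeps AMPA receptors largely impermeable to calcium, read 11.59, 11.62 and 11.48 in pMCAO mice and 11.63, 11.74 and 11.79 in sham mice (-0.16 ± 0.06, limma adjusted p = 0.153). The groups did not overlap, although the test was not passed. Gria3 had -0.18 ± 0.06 (limma adjusted p = 0.0766), also without overlap. Gria1, at 10.26, 10.31 and 10.44 in pMCAO mice and 10.36, 10.52 and 10.40 in sham mice, overlapped (-0.09 ± 0.08, limma adjusted p = 0.536).

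The other kainate subunits stayed nearer to sham than Grik2 did, with log2 fold changes of -0.12 (Grik1), 0.04 (Grik3), -0.03 (Grik4) and 0.00 (Grik5), and none passed. Among NMDA subunits 0 of 6 passed and 4 were below 0 (53.4% of all genes were). Grin2a, which makes up much of the adult cortical NMDA receptor, read 9.77, 9.83 and 9.75 in pMCAO mice and 9.97, 10.02 and 9.90 in sham mice (-0.18 ± 0.06, limma adjusted p = 0.115). Grin2b, the subunit prominent in early life and outside adult synapses, read 10.75, 10.71 and 10.77 in pMCAO mice and 10.90, 10.91 and 10.90 in sham mice (-0.16 ± 0.06, limma adjusted p = 0.101). In each of these 2 genes all pMCAO animals lay below all sham animals. Grin2d, at 6.66, 6.81 and 6.66 in pMCAO mice and 6.66, 6.55 and 6.61 in sham mice, was among the 3 highest members (0.10 ± 0.08).

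The metabotropic receptors had a median of -0.15 in mice at 6 h. Of the 7, 1 fell past the threshold (Grm5, against 4.23% of all genes) and 6 were below 0 (53.4% of all genes). The group II receptors, which restrain release through inhibitory G proteins, had -0.22 ± 0.11 (Grm2) and -0.16 ± 0.07 (Grm3), with adjusted p of 0.243 and 0.214 in limma. The group III receptors, which apart from the retinal Grm6 sit mainly on axon terminals, lay between -0.15 (Grm6) and 0.01 (Grm4). The second, dimmer clusters of Grm6 and Grm7 had the other sign (0.06 and 0.10), so a direction for these 2 genes depends on the cluster used. The second cluster of Grin2b had -0.18, the same direction as the first.

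No GABA-A subunit passed in mice at 6 h: 0 of 16 rose and 0 fell, where 3.21% and 4.23% of all genes did. Of the 16, 11 were below 0 (53.4% of all genes) and the median was -0.08. Gabrg3, a gamma subunit, read 8.41, 8.48 and 8.26 in pMCAO mice and 8.57, 8.53 and 8.69 in sham mice, and was the lowest of them (-0.21 ± 0.07, limma adjusted p = 0.0986). Gabrb2, a beta subunit of many synaptic GABA-A receptors, read 9.77, 9.65 and 9.61 in pMCAO mice and 9.81, 9.77 and 9.89 in sham mice (-0.15 ± 0.07, limma adjusted p = 0.231). The first pair of groups did not overlap and the second touched at 9.77. The alpha subunits Gabra2 to Gabra6 lay between -0.10 (Gabra4) and 0.06 (Gabra2), and the rho subunits, best known from the retina, between -0.01 (Gabrr3) and 0.09 (Gabrr1). Of the glycine receptor alpha subunits, Glra3 read 6.17, 6.58 and 5.79 in pMCAO mice and 6.62, 6.62 and 6.60 in sham mice. Its log2 fold change was as large as that of Grik2, but its pMCAO animals spread over 0.79 (-0.43 ± 0.15, limma adjusted p = 0.0977), and without pMCAO replicate 2, the one nearest sham, it was -0.63 with an adjusted p of 0.0121. Glra1 had the highest log2 fold change of the 44 (0.12 ± 0.10).

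**Figure D2:**
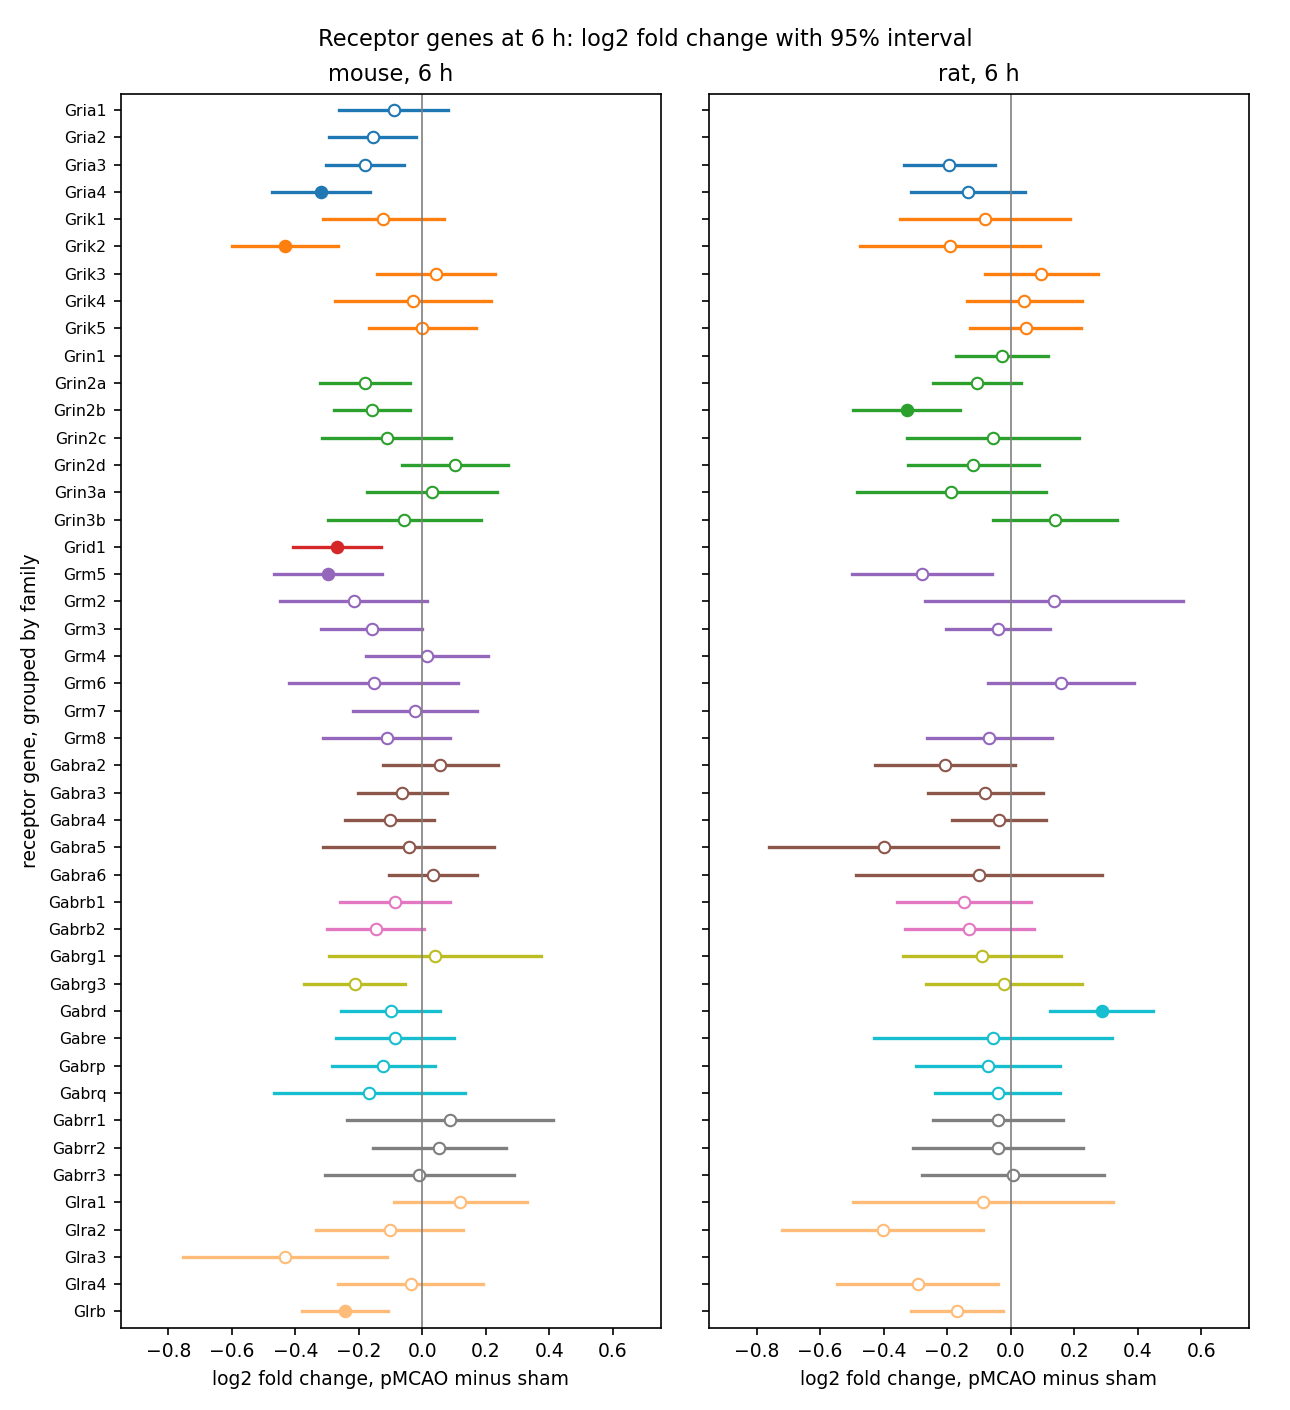
Log2 fold change at 6 h, pMCAO minus sham (horizontal axis), of every receptor gene measured, 1 row per gene, in mouse and in rat. Dots are estimates, bars are 95% intervals from limma, and filled dots have an adjusted p under 0.05. Most estimates lie left of 0 in both species (33 of 44 in mouse and 31 of 39 in rat), with 7 filled dots in all.

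In rats at 6 h, 1 of 39 receptor genes rose, the GABA-A delta subunit gene Gabrd, and 1 fell, the NMDA subunit gene Grin2b. Among all 18166 rat genes 2.85% rose and 3.62% fell, and each of the 2 genes is 2.56% of the members, so the shares called were near the background. Without adjustment 8 of the 39 were under 0.05, against 22.1% of all genes, and 7 of them were lower (13.1% of all genes were). The log2 fold change was below 0 in 31 of the 39 (79.5%, against 53.9% of all genes), with a median of -0.08 against -0.02. All pMCAO animals lay below all sham animals in 8 of the 39 (14.8% of all genes) and above them in 2 (9.73%).

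Grin2b read 10.78, 10.70 and 10.67 in pMCAO rats and 11.08, 11.12 and 10.93 in sham rats at 6 h, with no overlap (-0.33 ± 0.08, n = 3 per group, limma adjusted p = 0.0282). At 2 h it read 11.37, 11.26 and 11.19 in pMCAO rats and 11.34, 11.21 and 11.24 in sham rats (0.01 ± 0.08), with the groups intermixed. It no longer passed at 6 h once pMCAO replicate 2 or 3, or sham replicate 1 or 2, was removed (adjusted p = 0.0293 to 0.11 over the 6 fits). With the striatal marker covariate it had -0.30 and did not pass (limma adjusted p = 0.101). Grin1, the subunit that every NMDA receptor needs, was measured in rat and read 9.95, 9.86 and 9.82 in pMCAO rats and 9.92, 9.91 and 9.88 in sham rats (-0.03 ± 0.07, limma adjusted p = 0.863). Grin2a read 10.04, 9.95 and 10.04 in pMCAO rats and 10.14, 10.13 and 10.08 in sham rats (-0.11 ± 0.06, limma adjusted p = 0.366), without overlap. Of the 7 NMDA subunits, 6 were below 0 (53.9% of all rat genes were), and Grin3b stood above (0.14 ± 0.09).

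Gabrd encodes a subunit of receptors outside the synapse that pass a steady inhibitory current in low ambient GABA. It read 7.44, 7.58 and 7.54 in pMCAO rats and 7.22, 7.23 and 7.25 in sham rats at 6 h (0.29 ± 0.07, n = 3 per group, limma adjusted p = 0.0417). The groups did not overlap, and the sham animals spread over only 0.03. At 2 h it read 8.10, 8.21 and 8.25 in pMCAO rats and 8.32, 8.19 and 8.12 in sham rats (-0.02 ± 0.07), with the groups intermixed. It kept the call in 1 of the 6 fits with an array left out, that without pMCAO replicate 1, and did not keep it once pMCAO replicate 2, pMCAO replicate 3 or any of the 3 sham replicates was removed (adjusted p = 0.0491 to 0.118). With pMCAO replicate 2, pMCAO replicate 3, sham replicate 1 or sham replicate 2 removed, 0 rat receptor genes passed, and without sham replicate 3 only Grin2b did.

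Several other rat members lay below sham at 6 h without passing. Gabra5, an alpha subunit of mainly extrasynaptic receptors, read 9.16, 8.96 and 9.09 in pMCAO rats and 9.32, 9.48 and 9.61 in sham rats (-0.40 ± 0.17, limma adjusted p = 0.177). Glra2, the glycine receptor alpha subunit of the developing brain, read 6.31, 6.27 and 5.99 in pMCAO rats and 6.39, 6.88 and 6.51 in sham rats (-0.40 ± 0.15, limma adjusted p = 0.123). Neither pair overlapped and neither gene passed. Glrb read 10.30, 10.29 and 10.12 in pMCAO rats and 10.37, 10.42 and 10.43 in sham rats (-0.17 ± 0.07, limma adjusted p = 0.154). Grm5 read 9.21, 9.21 and 8.79 in pMCAO rats and 9.38, 9.36 and 9.31 in sham rats (-0.28 ± 0.10, limma adjusted p = 0.123). These were 2 of the genes that fell in mice, and in rats too their groups did not overlap, with pMCAO replicate 3 the lowest array in each. All 4 rat glycine receptor subunits were below 0 (53.9% of all rat genes were), with a median of -0.23. Gabrb2 read 10.76, 10.75 and 10.50 in pMCAO rats and 10.76, 10.86 and 10.78 in sham rats (-0.13 ± 0.09, limma adjusted p = 0.456), and Grm6, at 6.19, 6.07 and 6.01 in pMCAO rats and 5.94, 5.98 and 5.87 in sham rats, stood above sham (0.16 ± 0.11, limma adjusted p = 0.417).

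**Figure D3:**
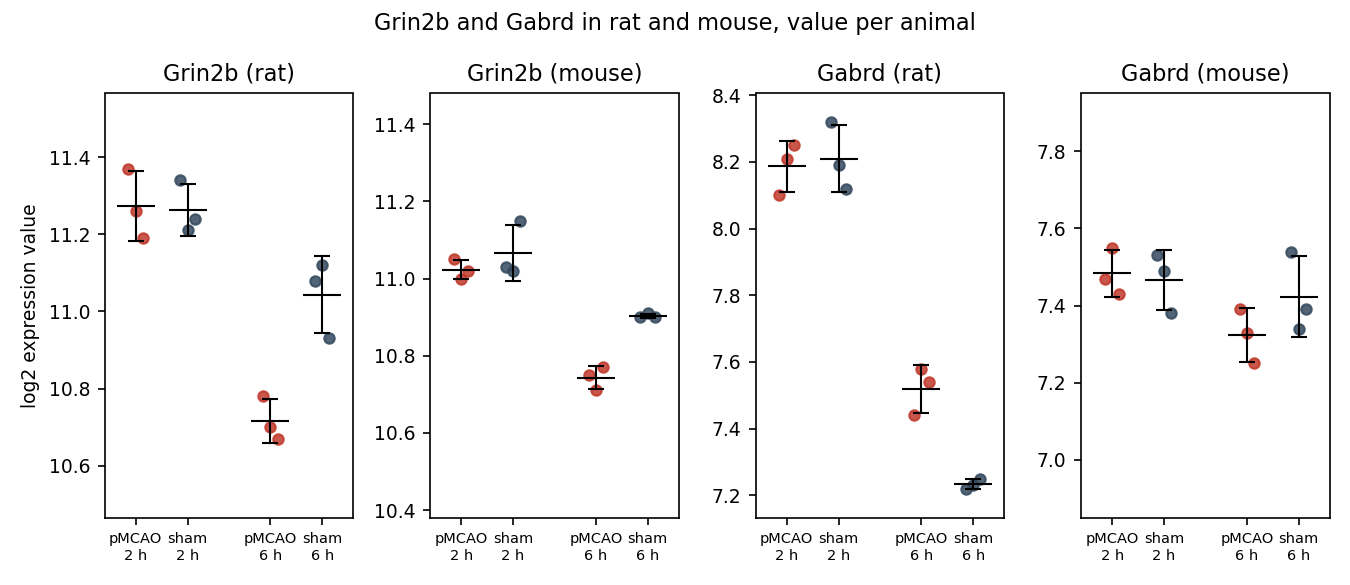
Log2 expression value (vertical axis, a separate range for each panel) of Grin2b and Gabrd in rat and in mouse, 1 point per animal, with pMCAO left of sham at 2 h and at 6 h. Horizontal lines are means and whiskers are 1 SD (n = 3). In rats at 6 h Gabrd lies at 7.44 to 7.58 after pMCAO and 7.22 to 7.25 after sham, while in mice at 6 h its groups overlap.

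The species difference was tested gene by gene as the mouse log2 fold change minus the rat one over the 38 shared members, with adjustment over all 14204 matched genes. The side occluded and the array platform also differed between the species, so their parts in a difference cannot be told apart from that of species. At 2 h 0 of 38 passed (0.0141% of all genes did) and 4 were under 0.05 without adjustment (3.96% of all genes). At 6 h 1 of 38 passed, Gabrd, at -0.10 ± 0.07 in mouse and 0.29 ± 0.07 in rat, a difference of -0.39 ± 0.10 (adjusted p = 0.0471). Among all matched genes 1.19% passed in that direction. In mice at 6 h it read 7.39, 7.33 and 7.25 after pMCAO and 7.54, 7.34 and 7.39 after sham, and the groups overlapped. The difference passed in 3 of the 12 fits with 1 array left out (adjusted p = 0.0404 to 0.127). It did not pass when the array removed was pMCAO replicate 2, pMCAO replicate 3, sham replicate 1 or sham replicate 3 of mouse, or pMCAO replicate 2, pMCAO replicate 3 or any sham replicate of rat.

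For Grik2, Gria4, Glrb, Grm5 and Grin2b, which fell in 1 species and were measured in both, the test of the difference was not passed. Grid1 was measured in mouse only and has no such test. Grik2 stood at -0.43 in mouse and -0.19 in rat (difference -0.24 ± 0.15, adjusted p = 0.469), and Gria4 at -0.32 and -0.13 (difference -0.19 ± 0.11, adjusted p = 0.427). Glrb and Grm5 differed by -0.07 ± 0.09 and -0.02 ± 0.13. Grin2b stood at -0.16 in mouse and -0.33 in rat (difference 0.17 ± 0.10, adjusted p = 0.417). A p that misses the threshold does not show that the species act alike. Of the 38 shared genes, 22 were below 0 in both species at 6 h (57.9%, against 36.4% of all matched genes) and 1 was above 0 in both (2.63%, against 25.8%). Across the 38 genes the log2 fold changes of the species correlated weakly at 6 h (Pearson r 0.12, Spearman rho 0.12), where all 14204 matched genes gave 0.50 and 0.37. Genes of 1 sample share their arrays and are not independent, so these are descriptions.

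**Figure D4:**
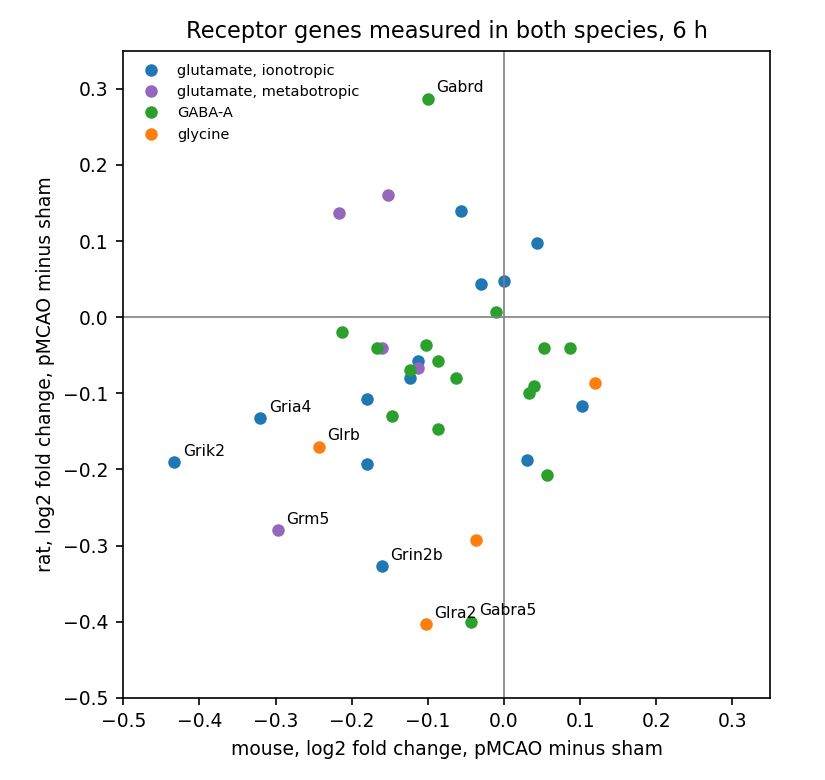
Log2 fold change at 6 h, pMCAO minus sham, in rat against that in mouse for the 38 receptor genes measured in both, 1 point per gene. Most points lie at the lower left (22 of 38 below 0 in both species), and Gabrd stands apart at -0.10 in mouse and 0.29 in rat.

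The change between times was the 6 h effect minus the 2 h effect. In mice 0 of 44 passed (0.171% of all genes did), while 12 were under 0.05 without adjustment, all of them lower at 6 h (7.49% of all genes were). The smallest adjusted p was 0.102, for Grik2 (-0.47 ± 0.11), and Gria4 followed with -0.42 ± 0.10 (limma adjusted p = 0.106). In rats 0 of 39 passed (0.231% of all genes did) and 3 were under 0.05 without adjustment (10.8% of all genes). The 2 genes called in rats had -0.34 ± 0.11 (Grin2b) and 0.31 ± 0.11 (Gabrd), with adjusted p of 0.276 and 0.294 in limma. The 6 h calls are therefore not shown to differ from the values at 2 h.

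**Figure D5:**
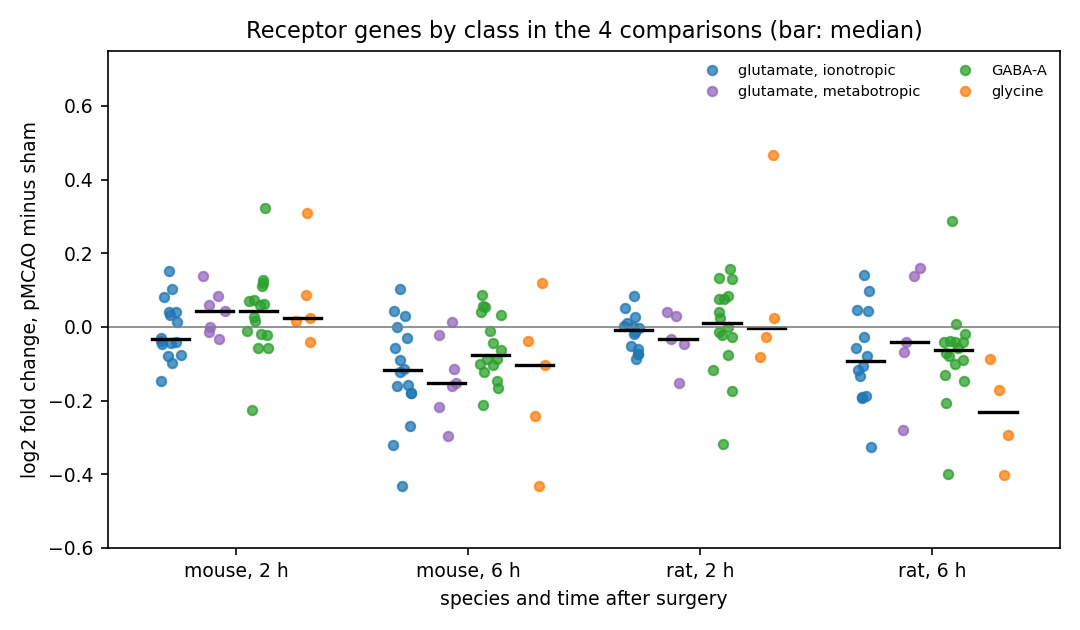
Log2 fold change, pMCAO minus sham (vertical axis), of each receptor gene in the 4 comparisons, 1 point per gene, by class, with the class median as a bar. Medians at 6 h are -0.12 (ionotropic glutamate), -0.15 (metabotropic glutamate), -0.08 (GABA-A) and -0.10 (glycine) in mouse, and -0.09, -0.04, -0.06 and -0.23 in rat, while those at 2 h lie between -0.03 and 0.04.

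The direction at 6 h was also described by the level of the genes on the array. Of the 16 mouse receptor genes with a sham mean of 9 or more at 6 h, 14 were below 0, with a median of -0.15. Among all 1867 mouse genes at that level, 68.2% were below 0 and the median was -0.06. In rats all 14 such receptor genes were below 0 (median -0.14), against 66.8% of 1723 genes at that level (median -0.06). The level was the sham mean, which is also subtracted in each log2 fold change. How much of a tilt below 0 this adds in either set, the receptor genes or all genes, was not tested. The comparison is a description, since the level of a probe also depends on the probe.

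Several receptor genes are neighbours in the RefSeq mouse order. Gria2 and Glrb lie next to each other, with log2 fold changes at 6 h of -0.16 and -0.24. Among adjacent GABA-A genes the pairs were 0.04 and 0.06 (Gabrg1 and Gabra2), -0.10 and -0.09 (Gabra4 and Gabrb1), -0.21 and -0.04 (Gabrg3 and Gabra5), 0.05 and 0.09 (Gabrr2 and Gabrr1), -0.06 and -0.17 (Gabra3 and Gabrq) and 0.03 and -0.15 (Gabra6 and Gabrb2). None of the GABA-A genes in these pairs passed the test.

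Proteins that travel with these receptors were examined as lists. Of 14 auxiliary subunits of glutamate receptors measured in mouse, 2 fell at 6 h (4.23% of all mouse genes did), 0 rose (3.21%), and the median was -0.10 against -0.02 over all genes. These were Neto1, at 9.94, 9.78 and 9.57 in pMCAO mice and 10.18, 10.27 and 10.23 in sham mice (-0.46 ± 0.09, limma adjusted p = 0.0118), and Neto2, at 9.28, 9.37 and 9.45 in pMCAO mice and 9.62, 9.58 and 9.88 in sham mice (-0.33 ± 0.08, limma adjusted p = 0.032). Both encode auxiliary subunits of kainate receptors, the family of Grik2, and in both the groups did not overlap. Neto1 passed in all 6 fits with 1 array left out (adjusted p = 0.00588 to 0.0435), and Neto2 in 3 of 6, not without pMCAO replicate 1, pMCAO replicate 2 or sham replicate 3 (adjusted p = 0.0351 to 0.0901). With the striatal marker covariate neither passed: Neto1 had -0.42 (limma adjusted p = 0.228), while Neto2 shrank to -0.20 (limma adjusted p = 0.486). Of 13 auxiliary subunits in rat, 1 fell at 6 h (3.62% of all rat genes did) and 0 rose (2.85%), with a median near 0 (0.003). It was Cnih2, an AMPA receptor partner, at 9.70, 9.45 and 9.39 in pMCAO rats and 10.07, 10.17 and 9.95 in sham rats (-0.55 ± 0.12, limma adjusted p = 0.0222). It did not pass once pMCAO replicate 2 or 3, or sham replicate 1 or 2, was removed (adjusted p = 0.0214 to 0.0879). Cnih2 kept the call with the striatal marker covariate and lost it with all clusters tested (limma adjusted p = 0.0562).

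The scaffolds of the synapse did not pass. Of 19 glutamatergic postsynaptic scaffold genes in mouse and 17 in rat, 0 rose and 0 fell at 6 h, with medians of -0.02 and -0.04, against -0.02 over all genes in each. Of 7 inhibitory postsynaptic scaffold genes in each species 0 passed, as did 0 of 2 neuronal chloride transporters, Slc12a5 and Slc12a2, which set whether GABA-A currents inhibit. In the GABA-B list 1 of 5 fell in mouse (4.23% of all genes did; list median -0.06), the auxiliary subunit gene Kctd8, at 5.81, 6.09 and 5.96 in pMCAO mice and 6.62, 6.22 and 6.46 in sham mice (-0.48 ± 0.11, limma adjusted p = 0.0276). It did not pass once pMCAO replicate 1 or 3, or sham replicate 1 or 3, was removed (adjusted p = 0.0209 to 0.0857). With the striatal marker covariate it shrank to -0.31 (limma adjusted p = 0.446). In rat 0 of 5 passed, with a median of 0.02.

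Among transmitter synthesis, packing and uptake genes, 1 of 13 fell in mouse (4.23% of all mouse genes did) and 1 of 13 rose in rat (2.85% of all rat genes did) at 6 h, with list medians of -0.04 and -0.02. In mouse it was Slc17a6, the vesicular glutamate transporter VGLUT2, at 7.21, 7.26 and 7.02 in pMCAO mice and 7.68, 7.68 and 7.50 in sham mice (-0.46 ± 0.10, limma adjusted p = 0.0212). In rat it was Slc32a1, the vesicular GABA and glycine transporter, at 8.03, 7.99 and 7.88 in pMCAO rats and 7.76, 7.67 and 7.70 in sham rats (0.26 ± 0.07, limma adjusted p = 0.045). Neither pair of groups overlapped. Slc17a6 did not pass once pMCAO replicate 3, or sham replicate 1 or 2, was removed (adjusted p = 0.0343 to 0.066), and Slc32a1 kept it only without pMCAO replicate 3 (adjusted p = 0.0372 to 0.142 over the 6 fits). With the striatal marker covariate Slc17a6 had -0.52 (limma adjusted p = 0.197) and Slc32a1 0.25 (limma adjusted p = 0.129), and neither passed. At 2 h 0 genes of these 6 lists passed in either species.

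Cell type markers moved as well at 6 h, and their part in the receptor values was not tested beyond the covariate above. Among all mouse genes 4.23% fell, 3.21% rose and 53.4% were below 0. In mice 1 of 12 pan-neuronal markers fell (Stmn2, -0.22) and 0 rose. Their list median was -0.10, the same as for the receptor genes. Of 10 striatal markers 2 fell, Drd2 and Tac1, and all 10 were below 0, with a list median of -0.68. Of 7 cortical excitatory neuron markers 2 fell, Neurod6 (-0.73 ± 0.10, limma adjusted p = 0.00292) and Rorb (-0.57 ± 0.10, limma adjusted p = 0.0112), and the list mean was 8.92 to 8.97 after pMCAO and 9.07 to 9.10 after sham. Of 7 interneuron markers Pvalb fell (-0.34) and Npy rose (0.40). Of 5 microglial markers 2 fell, P2ry12 (-0.78) and Csf1r (-0.25). The astrocyte gene Gfap (0.89, 1 of 7 in its list) and the endothelial gene Cdh5 (0.58, 1 of 5) rose. None of 6 oligodendrocyte markers passed, but all 6 were above 0, with a median of 0.19. Of 6 neutrophil, 3 choroid plexus and 6 oligodendrocyte precursor markers 0 passed.

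In rats at 6 h, 0 of 12 pan-neuronal and 0 of 11 striatal markers passed, with medians of -0.07 and 0.08. Among all rat genes 3.62% fell, 2.85% rose and 53.9% were below 0. Of 6 cortical excitatory neuron markers 1 fell, Neurod6 (-0.91 ± 0.21, limma adjusted p = 0.0275), and the list mean was 9.36 to 9.48 after pMCAO and 9.57 to 9.67 after sham. Of 5 microglial markers 2 fell, P2ry12 (-0.85) and Tmem119 (-0.42), and all 5 were below 0, with a median of -0.34. The interneuron gene Npy (0.41, 1 of 7) and the neutrophil gene S100a9 (0.99, 1 of 5) rose, and the neutrophil mean was 5.34 to 5.76 after pMCAO and 4.91 to 5.06 after sham. Of 6 astrocyte, 6 oligodendrocyte, 6 oligodendrocyte precursor, 4 endothelial and 4 choroid plexus markers 0 passed.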

How the data were processed

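RNA was measured on whole-transcript arrays in 24 animals, 1 array each, so replicates are separate animals per the labels. RNA integrity was above 7.5 per the labels. The deposited values, 1 table per species, are log2 expression values rounded by the authors to 2 decimals. The tools named in the submitters' processing notes are oligo and limma, without versions, and how background was corrected or arrays normalized is not given in the sources used here. Array medians were 6.03 to 6.06 (mouse) and 6.67 to 6.75 (rat) at 2 h, and 5.92 to 5.96 and 5.82 to 5.87 at 6 h, so levels were not compared across times. A time label that reads 2 h for every sample disagrees with the titles and was not used. The number of arrays limits the precision.

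Genes were named from the platform annotation, keeping clusters with 1 symbol (1 cluster per species with several symbols, 1 of them a receptor gene, was left out) and the brightest cluster per symbol. Group means were fitted to the 12 arrays of a species in limma 3.58.1 under R 4.3.3 (8 residual degrees of freedom), with eBayes, two-sided tests and Benjamini-Hochberg adjustment over all genes tested, at an adjusted p of 0.05. An exact permutation test of 3 against 3 cannot go below 0.1. Species differences used Welch-Satterthwaite degrees of freedom. The script was tested on simulated data. Alternatives were each replicate left out, quantile normalization, median centring, all clusters, dim genes left out, trend and robust eBayes, array weights, a replicate block, the 6 arrays alone, a striatal marker covariate and a fold limit. Same-numbered replicates correlated from -0.12 to 0.33, with 1 of 12 over 0.1, so the numbers were not taken to pair animals. With 3 animals per group these correlations cannot exclude a pairing.

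Members, lists and alternatives were chosen with earlier results of these data known. Members past the threshold were named with the value in every animal. The largest positive and negative members of each comparison (3 each way) and some main subunits were named whatever their p, some by log2 fold change alone. Of each associated list, up to 4 members past the threshold were named. Other members were named to complete a family after their values were seen.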

Additional observations from a re-analysis of the deposited data

Results flagged for a closer look

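Gabrd was the 1 receptor gene whose response to pMCAO at 6 h differed between the species by a test of the difference itself. The occluded side and the array platform differed with species and cannot be told apart from it. The mouse log2 fold change minus the rat one was -0.387 (SE 0.104, adjusted p = 0.0471 over 14204 matched genes), from -0.10 in mouse and 0.29 in rat. The difference passed in only 3 of 12 fits with 1 array left out and in 2 of 7 other settings. It was 1 of 38 shared genes, where 1.19% of all matched genes passed in that direction. Of the 3 pMCAO rats all 3 lay above every sham rat, while the mouse groups overlapped. Groups of 3 animals are too small for a test of single outlying animals.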

How the results depend on the processing

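No direction reversed among the named results that passed. In mice at 6 h, 5 receptor genes passed. The count was 2 with all transcript clusters (Gria4 and Grik2), 9 with dim genes left out, 10 with trend and robust eBayes, 3 with array weights, 2 with the replicate block, and 0 with the striatal covariate, the 6 arrays alone or a fold limit of 0.5 on the log2 scale. Quantile normalization gave 4 and median centring 6. Leaving out 1 array gave 1 to 4. Every gene counted under each of these alternatives was lower after pMCAO. Of all 22180 genes, 75 passed with the striatal covariate and 616 to 1368 with 1 array left out, in either direction. For the other settings no such number is given here, so their counts have no background beside them. In mice at 2 h array weights gave 1 (Gabra6, adjusted p = 0.0273) in place of 0. For the change between times in mice, trend and robust eBayes and the removal of dim genes each gave 2 (Gria4 and Grik2) in place of 0.

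In rats at 6 h, 2 passed. The count was 0 with all clusters, the 6 arrays alone or the fold limit, 1 with median centring, array weights, the replicate block (Grin2b in these 3) or the striatal covariate (Gabrd), and 4 with trend and robust eBayes. Leaving out 1 array gave 0 to 2. Of all 18166 genes, 592 passed with the striatal covariate and 550 to 1268 with 1 array left out. The counts under the other settings again have no background beside them. The species difference at 6 h (1 gene) gave 0 with quantile normalization, median centring, array weights, the replicate block or the striatal covariate, and 0 to 1 with 1 array left out. The block used replicate numbers, which were not taken to pair the animals. The cause of these shifts was not tested. With all clusters the adjustment runs over more tests, and with dim genes left out over fewer. Both settings also refit the model on a different set of rows. Alternatives for the associated genes were chosen after seeing the data.

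With 3 animals per group, a standard error of 0.055 to 0.188 limits what can be told from sham. The files used here give no detection calls, so a dim gene is not called absent.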
